A study of Mus musculus with 2 samples.

Results

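The red pulp type macrophages described here were 500 of 6393 cells of a single-cell RNA sequencing data set of mouse spleen. They were chosen by transcript counts alone: a cell was taken when it held at least 20 unique molecular identifiers (UMIs, each standing for 1 captured mRNA molecule) of Vcam1, at least 5 of C1qb and at least 10 of Slc40a1, and fewer than 6 of Top2a and Mki67 together, the last limit leaving out dividing cells. These 5 genes set the choice, so their values are given as a description and were not tested. The data came from 2 samples of splenic cells of Wild-Type mice, adults of both sexes on the C57BL/6J background by the study's methods, enriched with magnetic beads for the surface protein CD11c. Whole transcriptomes were captured on the BD Rhapsody system, in which single cells are paired with barcoded beads in microwells. The same run carried sample tags of other mice, which are not analysed here. The number of mice behind each sample is not given here, and nothing in the labels says that the samples came from separate animals, so the p-values measure only the spread between these 2 samples. There was 1 condition, so every comparison was between kinds of cells within it.

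Red pulp macrophages line the cords of the splenic red pulp, where blood percolates slowly past them and aged erythrocytes are taken up. They break down hemoglobin, open the heme ring with heme oxygenase, store the released iron in ferritin and return it to the plasma through ferroportin, which is encoded by Slc40a1. The transcription factor SPI-C, encoded by Spic, is needed for their development. VCAM1 is an adhesion molecule on their surface, and C1qb encodes a chain of the complement component C1q.

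The macrophages made up 350 of 3308 cells in replicate 1, or 10.6% (95% exact binomial interval 9.55 to 11.7), and 150 of 3085 cells in replicate 2, or 4.86% (4.13 to 5.68). The mean over the 2 samples was 7.72% (SD 4.04, n = 2). The share differed 2.18-fold between samples of the same genotype, and the intervals, which cover counting error only, did not overlap. Because CD11c beads preceded capture, these are shares of the enriched cells and not of the spleen. The samples held 46953398 and 43137746 UMIs in all, shared no cell barcode, and differed by more than counting noise, so they were not 1 library deposited more than once. The macrophages were deeply covered, with medians of 19297 and 19095.5 UMIs per cell against 11488.5 and 10982 in all other cells. They had 4498 and 4524.5 genes detected per cell against 3213 and 3157. Type 1 conventional dendritic cells (cDC1s) were as deep, with medians of 18360 and 20248 UMIs. The limits were set on absolute UMIs, which favors deeply covered cells. Mitochondrial transcripts took 6.12% and 5.94% of the UMIs of the median macrophage, and 5.47% and 5.48% in other cells.

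The genes used for the choice were present at many times the limits in most of the macrophages. Vcam1 had a median of 100 UMIs per macrophage in replicate 1 (range 20 to 524) and of 122.5 in replicate 2 (20 to 362). The C1qb medians were 65 and 71.5 UMIs, with ranges of 6 to 307 and 10 to 252. For Slc40a1 the medians were 114 and 102.5 UMIs, and the ranges 13 to 547 and 14 to 431. The lowest values of C1qb and Slc40a1 thus lay above what the selection required. Just outside the limits, 17 and 13 further cells would have been taken had the limits been halved, with medians of 16 and 19 UMIs of Vcam1. Just inside, 46 and 10 macrophages would have been lost had the limits been doubled, with Vcam1 medians of 28 and 37 UMIs. Of the cells that passed the 3 lower limits, 4 in each sample were left out as cycling.

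Spic and Hmox1 were named as markers of these cells but took no part in the choice. Spic was detected in 98.9% and 99.3% of the macrophages, at medians of 34 and 35.5 UMIs. Summed over the macrophages of a sample and scaled to CPM (UMIs of a gene per 1000000 UMIs of the sum), its level was 1873 and 1958 CPM, against 31.0 and 28.5 CPM in all other cells. Hmox1, encoding heme oxygenase 1, was detected in 99.7% and 100% of them, at medians of 75 and 95 UMIs, and stood at 5011 and 5336 CPM against 64.1 and 63.3 CPM. In T cells of the same samples, which should lack the gene, 5.26% and 7.64% held an Hmox1 UMI after every cell had been thinned to 5000 UMIs, a level that free RNA can give. T cells with a Spic UMI were 7.89% and 2.78% at that depth. Both markers were named with earlier results of these data known, so their levels are no independent check of the label. They were present where the label places them, and the cells are called red pulp type macrophages from here on. Adgre1, which encodes F4/80, was also higher in them (971 and 953 CPM against 87.1 and 82.0 CPM). Itgax, encoding the CD11c chain on which the samples were enriched, was lower in the macrophages, at 125 and 118 CPM against 652 and 570 CPM (log2 fold −2.21, SE 0.09). An Itgax UMI was seen in 69.1% and 74.7% of them, or 37.0% and 35.8% at the thinned depth, where cDC1s reached 84.0% and 85.0% and T cells 13.2% and 16.0%.

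**Figure D1:**
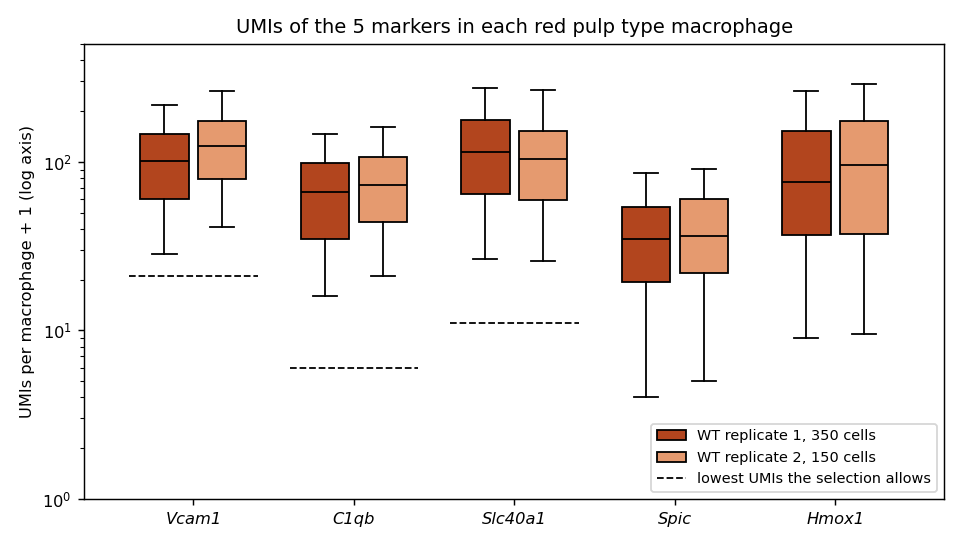
UMIs per macrophage (plus 1, logarithmic axis) of the 3 genes with a lower limit and of Spic and Hmox1, in each of the 2 samples, with boxes for the median and quartiles, whiskers for the 5th to 95th percentile and dashed lines for the lowest UMIs the choice allowed. The medians of the 2 samples differ by far less than the spread over cells, for example 34 and 35.5 UMIs for Spic.

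In the GRCm38 assembly, Vcam1 lies at chr3:116109949-116129688 on the minus strand, C1qb at chr4:136880129-136886187 on the minus strand and Slc40a1 at chr1:45908068-45926523 on the minus strand. Spic lies at chr10:88674772-88685015 on the minus strand and Hmox1 at chr8:75093621-75100589 on the plus strand. These are the spans of the gene models, exons and introns together, and intronic reads were counted by the authors.

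To ask which other transcripts distinguished these cells, the UMIs of the macrophages were summed per sample and compared with the sum of all other cells of the same samples by edgeR's quasi-likelihood test, with p-values adjusted by the Benjamini-Hochberg method over all genes tested, n = 2 sums against 2. A gene was called when its adjusted p was below 0.05 and it differed more than 2-fold, and every log2 fold given is macrophages relative to the comparison cells. The same macrophage sums were also compared with type 1 and type 2 conventional dendritic cells (cDC1s, 846 and 757 cells; cDC2s, 465 and 360 cells), so these comparisons share their macrophages and are given side by side. Both dendritic groups were also part of all other cells, so agreement among the 3 comparisons is not independent. Against all other cells 2310 of 14943 genes were called higher (15.5%) and 2445 lower (16.4%). Against cDC1s the shares were 19.0% higher and 16.0% lower, and against cDC2s 18.4% and 15.8%. In all 3 comparisons 1593 genes were called higher and 1194 lower, of 11600 tested in each. The other cells still held 87 and 91 cells with at least 5 UMIs of Vcam1 or 3 of C1qb, and without them 2364 genes were higher and 2445 lower. Since the cells were chosen by transcripts of the same cells, these p-values are no independent sign that the population exists.

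Among the largest folds were those of transporters, receptors and enzymes. Slc7a2, a carrier of basic amino acids, stood at 75.6 and 75.2 CPM against 0.325 and 0.401 CPM (log2 fold 7.80, SE 0.15, adjusted p = 1.5e-07). Slco2b1, an organic anion transporter, had 165 and 163 CPM against 0.876 and 0.726 CPM (7.79, SE 0.11). Both samples gave nearly the same level in each of these pairs. Paqr9 (log2 fold 7.62), Slc45a3 (7.58), the monocarboxylate transporter family gene Slc16a9 (7.23), the collagen gene Col14a1 (7.17), Vstm4 (7.09) and Ptgs1 (7.02), which encodes cyclooxygenase 1, followed. Ccr3, the eotaxin receptor known from eosinophils, was at 1743 and 1385 CPM in the macrophages and at 9.19 and 8.34 CPM elsewhere (7.60, SE 0.16). Among the 18 genes of a list of red pulp macrophage markers, which held no gene of the selection, 18 were called higher in each of the 3 comparisons. Their median log2 fold against all other cells was 6.40, where the median of all genes tested was −0.05. This list was drawn up for the same cell type with results of these data known and is no independent evidence of its direction.

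Genes for heme and iron handling were mostly higher in the macrophages. Of 38 list genes tested against all other cells, 21 were called higher and 2 lower, with a median log2 fold of 1.58. Against cDC1s 22 of 35 were higher and 1 was lower, and against cDC2s 21 of 35 were higher and 5 lower. For entry of hemoglobin and heme, Cd163, the receptor of hemoglobin bound to haptoglobin, was at 330 and 270 CPM against 2.35 and 2.68 CPM (7.02, SE 0.15, adjusted p = 2.1e-07). Lrp1, which takes up heme bound to hemopexin, was at 481 and 454 CPM against 22.7 and 17.6 CPM (4.66, SE 0.13). Slc48a1, which carries heme out of the phagolysosome, was at 680 and 611 CPM against 38.5 and 36.1 CPM (4.23, SE 0.09). All 3 entry genes were thus far above the other cells in both samples. Hmox1 itself was higher by 6.46 (SE 0.08) on the log2 scale against all other cells, by 6.35 against cDC1s and by 8.71 against cDC2s. Downstream of heme oxygenase, the biliverdin reductases Blvrb (377 and 348 CPM against 10.5 and 10.4; 5.24, SE 0.08) and Blvra (153 and 170 CPM against 17.1 and 15.7; 3.41, SE 0.09) were both higher. The heme-binding protein gene Hebp1 had a log2 fold of 5.29 (SE 0.10).

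Storage and transport genes differed in both directions. The ferritin light chain gene Ftl1 was at 8137 and 7059 CPM against 1140 and 1126 CPM (2.87, SE 0.10), and the heavy chain gene Fth1 at 4520 and 4674 CPM against 1439 and 1493 CPM (1.77, SE 0.06). Ncoa4, which delivers ferritin to lysosomes, had a log2 fold of 2.91. Both ferritin chains were thus abundant in the other cells too. Trf, which encodes the plasma iron carrier transferrin, was at 1040 and 989 CPM against 23.0 and 20.7 CPM (5.66, SE 0.09). The phagosomal metal exporter Slc11a1 (3.77), the zinc and iron importer Slc39a8 (3.46), the ferrireductase Steap3 (3.53) and ceruloplasmin, Cp (2.43, SE 0.30), were higher as well. The transferrin receptor Tfrc went the other way, at 21.7 and 26.3 CPM against 75.9 and 72.8 CPM (−1.54, SE 0.11, adjusted p = 3.4e-05). Tfrc was also lower than in cDC2s (−2.19) but was not called against cDC1s (−0.58). The multicopper oxidase Heph was lower in all 3 comparisons (−1.57, −1.89 and −1.47). The regulators split too: Aco1, which encodes iron regulatory protein 1, was higher (1.74), whereas Nfe2l2 (−0.13), Ireb2 (−0.47) and Bach1 (−0.64), whose product represses Hmox1, were not called. Of the glutathione and thioredoxin genes, Gclm (2.33) and Txnrd1 (1.78) were higher and Gclc (−0.57) was not called.

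**Figure D2:**
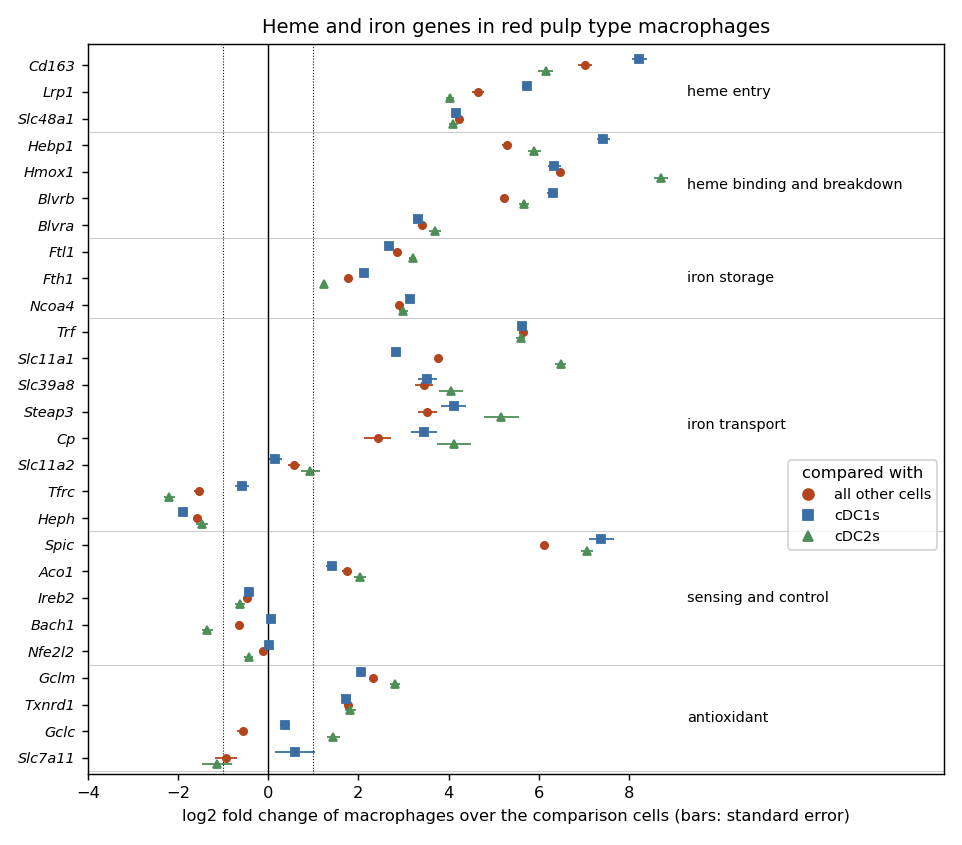
Log2 folds with their standard errors of 27 heme and iron genes, ordered by role, for macrophages against all other cells (circles), cDC1s (squares) and cDC2s (triangles), with dotted lines at 2-fold. Entry, breakdown and plasma carrier genes lie far to the right, from Cd163 at 7.02 against all other cells, and Heph lies left of the lower line in each comparison.

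The promoters of the list were searched for the core of the antioxidant response element, TGACNNNGC on either strand, to which the NFE2L2 protein and its repressor BACH1 are known to bind. RefSeq promoter sequences of the GRCm38.p6 build ran from 250 bases before to 50 after an annotated start, of which a gene can have several. They were matched for 32 of 41 list genes, and Hmox1 had no entry. The letters were present in 9 of the 32 genes (28.1%), against 14.0% of 27025 genes. Of those 9 genes 6 were called higher against all other cells, and of the 23 without the letters 12 were. The stretches of the 6 genes are shown so that the match can be read in its context, 20 bases on either side, 5′ to 3′ on the strand of the gene, with the match in capitals. A match of so short a pattern is a description of the letters and does not mark a bound site.
Blvra, chr2:127070588-127070636, plus strand, 49 bases before the start: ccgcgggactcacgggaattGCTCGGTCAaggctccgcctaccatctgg
Gclm, chr3:122245403-122245451, plus strand, 134 bases before: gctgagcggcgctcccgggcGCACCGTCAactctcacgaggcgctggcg
Lrp1, chr10:127621280-127621328, minus strand, 160 bases before: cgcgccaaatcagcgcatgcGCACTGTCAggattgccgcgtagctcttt
Ncoa4, chr14:32165725-32165773, plus strand, 44 bases before: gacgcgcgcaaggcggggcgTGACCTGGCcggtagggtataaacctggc
Slc39a8, chr3:135825224-135825272, plus strand, 35 bases before: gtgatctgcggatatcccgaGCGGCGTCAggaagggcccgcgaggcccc
Txnrd1, chr10:82859094-82859142, plus strand, 92 bases before: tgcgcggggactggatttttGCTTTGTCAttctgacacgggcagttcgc
The match lies on the gene's own strand in Ncoa4 and on the opposite strand in the other 5, where it reads as the reverse complement. The starts used for Ncoa4 and Txnrd1 lie inside their gene models, which begin at chr14:32159865 and chr10:82833951. For Txnrd1 the promoter at the beginning of the model held no match. The remaining genes with the letters were Flvcr1 and Nfe2l2, which were not called, and Hpx, which was too low to be tested.

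Within the macrophages Slc40a1, Hmox1 and the ferritin genes varied together from cell to cell, and the more thinly counted Cd163 and Blvrb did so less. Spearman's correlation of CPM per cell, over 350 cells in replicate 1 and 150 in replicate 2, was 0.53 and 0.62 between Slc40a1 and Hmox1. It was 0.54 and 0.58 between Hmox1 and Ftl1, 0.41 and 0.49 between Slc40a1 and Ftl1, and 0.66 and 0.70 between the ferritin chains. For Cd163 it was −0.09 and 0.04 with Hmox1 and −0.19 and 0.11 with Ftl1, and for Blvrb it was 0.19 and 0.19 with Hmox1 and 0.05 and 0.14 with Fth1. The median macrophage held 1 UMI of Cd163 in each sample, against 75 and 95 of Hmox1. Blvrb was at 377 and 348 CPM, against 5011 and 5336 CPM of Hmox1. Counting noise lowers the correlations of sparse genes, and no correction was made for it. Spic and Hmox1, which both mark the population, were hardly related across its cells (0.13 and 0.18). Vcam1 and C1qb were as weakly related (0.13 and 0.16), and Slc40a1 was slightly opposed to the summed class II genes (−0.15 and −0.14). The cells of a sample share their library and were scaled by their own totals, and Vcam1, C1qb and Slc40a1 were cut at a lower limit, so these values describe the cells and carry no test. Hmox1 was nearly unrelated to the UMIs per cell (0.04 and 0.09).

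Complement genes, above all those of C1q and of secreted components, were also higher in the macrophages. Of 20 list genes tested, 13 were higher and 3 lower against all other cells (median log2 fold 3.34), 15 were higher and 1 lower of 19 against cDC1s, and 13 were higher and 2 lower of 18 against cDC2s. C1qa and C1qc, which encode the other chains of C1q, had 1575 and 1590 CPM against 14.7 and 20.1 CPM (6.63, SE 0.15) and 4314 and 4430 CPM against 37.8 and 48.7 CPM (6.78, SE 0.14). Fcna, encoding ficolin A, a soluble pattern recognition protein that starts the lectin pathway, was at 3013 and 2939 CPM against 17.6 and 13.9 CPM (7.68, SE 0.14, adjusted p = 1.2e-07). The terminal component C6 was at 1327 and 1187 CPM against 7.61 and 7.49 CPM (7.50, SE 0.11). For each of these, both macrophage sums lay far above both sums of other cells. C2 (5.98), C4b (5.08), Cfp, which encodes properdin (3.46), and C3 (2.75) were higher too. Among receptors and regulators, C5ar2 (3.67) and Vsig4 (5.97) were higher, Vsig4 at only 7.56 and 14.1 CPM. Cr2, the complement receptor of B cells, was lower (−3.07, or −4.99 without the macrophages of replicate 1). Itgam, encoding the CD11b chain, was lower (−2.45, SE 0.17), at 70.6 and 56.7 CPM in the other cells, although it was not called against cDC1s (−0.05).

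Receptors for dying cells made up the next group, with 20 of 30 genes higher and 5 lower and a median log2 fold of 1.94. The TAM kinases Axl and Mertk, which recognize phosphatidylserine through bridging proteins, were at 2154 and 2088 CPM (6.72, SE 0.11) and at 1144 and 1169 CPM against 14.8 and 16.3 CPM (6.34, SE 0.08). Their bridging ligand Gas6 was higher (5.84, SE 0.36) at 26.8 and 16.3 CPM. Tyro3, the remaining TAM kinase, had no UMI in the macrophages, which allows a level of up to 0.428 and 0.94 CPM. The phosphatidylserine receptors Stab2 (248 and 245 CPM; 5.77) and Timd4 (213 and 212 CPM; 5.23), the integrin chain Itgb5 (5.70) and the scavenger receptor Msr1 (2.90) were also higher. Sirpa, the receptor of the CD47 signal that restrains uptake, was higher by 2.70. The genes that were lower included Cd36 (−2.84, SE 0.24) and Havcr2 (−2.66). Cd36 was at 32.2 and 14.7 CPM, or at a log2 fold of −3.69 without the macrophages of replicate 1, and was lower than in cDC1s (−4.04) and higher than in cDC2s (2.37). Mfge8, another bridging protein, was lower as well (−2.34).

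Of 47 lysosomal genes 31 were called higher and 4 lower, with a median log2 fold of 1.53. Ctsb, encoding cathepsin B, reached 11156 and 11394 CPM against 486 and 477 CPM (4.67, SE 0.07), and Ctsd (5.48), Ctsl (4.77), Acp2 (4.28) and Lgmn (3.92) followed. The lower genes included Ppt1 (−1.60), Gm2a (−1.57) and Gusb (−1.37). Ppt1 was lower than in cDC1s (−2.83) and higher than in cDC2s (1.53), so its direction depended on the cells it was set against. Among 31 genes of lipid handling and of the oxysterol receptor LXR, 20 were higher and 4 lower (median 1.55). Nr1h3, which encodes LXRα, had 215 and 201 CPM against 5.96 and 6.18 CPM (5.22, SE 0.09). The LXR target and cholesterol exporter Abca1 (5.16), Apoe (4.95), the lipoprotein lipase Lpl (5.90), the lysosomal phospholipase Pla2g15 (6.15) and Cd5l, a secreted macrophage protein (814 and 761 CPM against 6.58 and 4.56; 7.26, SE 0.17), were all higher.

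**Figure D3:**
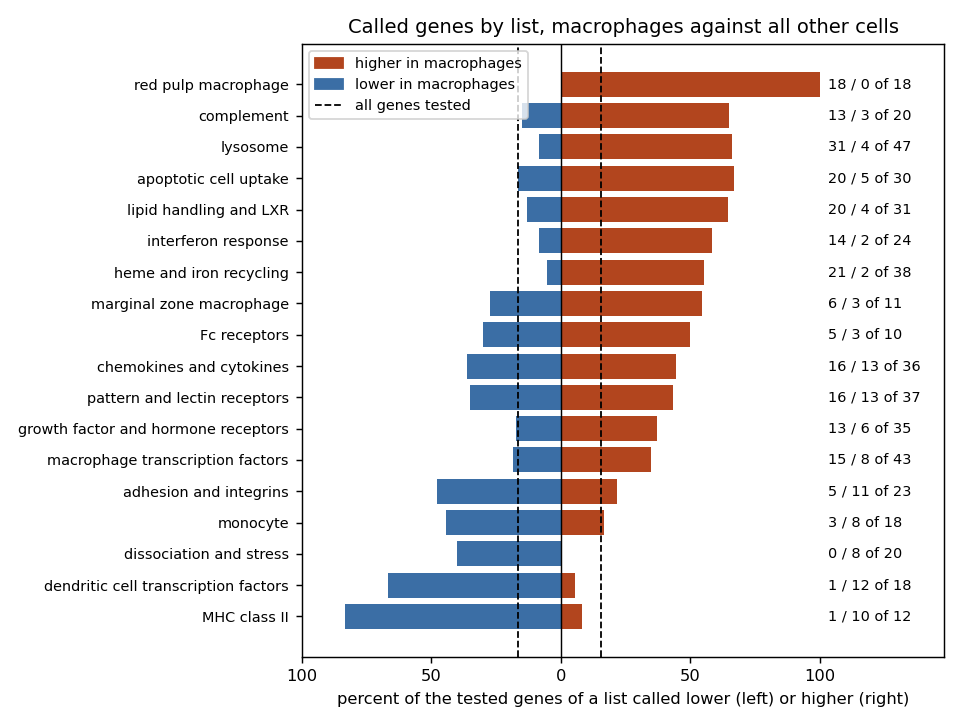
Percent of the tested genes of 18 lists that were called higher (red, to the right) or lower (blue, to the left) in the macrophages against all other cells. Dashed lines mark the shares over all genes, 15.5% and 16.4%, the red pulp list stands at the top with 18 of 18 genes higher and the MHC class II list at the bottom with 10 of 12 lower.

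Transcription factors known from macrophages differed in both directions, with 15 of 43 list genes higher, 8 lower and a median log2 fold of 0.26. Maf (1886 and 1858 CPM against 21.9 and 35.7; 6.14, SE 0.23), which drives macrophage differentiation, was higher. So were Pparg (415 and 407 CPM against 12.5 and 12.7; 5.15), Tfec (5.29), Rxra (3.96), Cebpb (3.46) and Zeb2 (2.08). Spi1, the gene of PU.1, was not called (−0.78). Mef2c (−3.85) and Runx3 (−3.84) of the same list were lower. Of 18 regulators of dendritic cells 12 were lower and 1 higher (median −1.60). Zbtb46 was at 16.1 and 20.4 CPM against 221 and 199 CPM (−3.45, SE 0.12), and the cytokine receptor Flt3 at 30.4 and 16.9 CPM against 492 and 479 CPM (−4.13, SE 0.19, or −4.77 without the macrophages of replicate 1). Bcl11a (−3.46) and Batf3 (−1.28) were lower and Id2 was not called (0.87), Id2 being also a member of the macrophage list. Irf8, a cDC1 regulator on both lists, was not called against all other cells (−0.99), but was lower than in cDC1s (−2.25) and higher than in cDC2s (3.77).

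Receptors of growth factors and secreted factors differed in both directions. Csf1r, the receptor on which tissue macrophages depend, was at 3237 and 3404 CPM against 122 and 130 CPM (4.84, SE 0.07). Epor, encoding the erythropoietin receptor, was at 51.9 and 39.8 CPM against 0.476 and 0.626 CPM (6.51, SE 0.23), and 56.0% and 49.3% of the macrophages held a UMI of it (23.8% and 15.5% when thinned, against no T cell). Gfra2, a receptor of neurotrophic factors (5.94), and Hpgd, which inactivates prostaglandins (4.95), were higher, and Kit was lower (−4.10). Igf1, a growth factor for many cell types, was at 962 and 912 CPM against 9.36 and 7.89 CPM (6.88, SE 0.11). Of 36 chemokines and cytokines 16 were higher and 13 lower, with Il1a (5.42), Il18bp (5.06), Il18 (3.88) and Il15 (1.55) among the first and Ccl5 (−4.50, SE 0.19) and Ltb (−4.20) among the second. Cxcl10 was higher by 2.02 (SE 0.52, adjusted p = 1.5e-02). It stood at 81.3 CPM in replicate 1 and 202 CPM in replicate 2, against 20.7 and 52.2 CPM in all other cells. Its log2 fold within a single sample was 2.00 in replicate 1 and 1.95 in replicate 2. With both sums of other cells kept, leaving out the macrophages of replicate 2 lowered its log2 fold to 1.29 and ended the call. Without those of replicate 1, 8 chemokines and cytokines were called lower.

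Receptors for antibody and for microbial patterns differed in both directions. Of 10 Fc receptor genes 5 were higher and 3 lower, or 1 lower without the macrophages of replicate 1. The activating Fc receptors Fcgr1 (111 and 116 CPM against 1.98 and 2.08; 5.91), Fcgr3 (5.39) and Fcgr4 (4.60) were higher, and the inhibitory receptor Fcgr2b was lower, at 8.70 and 9.40 CPM against 101 and 99.4 CPM (−3.36, SE 0.11). Mrc1, the mannose receptor, was at 1570 and 1615 CPM against 11.5 and 13.7 CPM (7.10, SE 0.11). Clec4n (6.10), Cd14 (5.71), Tlr4 (4.72), Tlr8 (4.51), Siglece (4.16) and Tlr7 (2.19) were higher, and Tlr11 (−3.18) and Tlr3 (−1.65) were lower, as were Mgl2 (−5.46) and other lectins. Over the whole list of 37 pattern receptors and lectins 16 were higher and 13 lower. Clec1b was higher by 4.97, at 110 and 128 CPM against 4.51 and 3.65 CPM. Its gene model overlaps that of Clec9a on the same strand. Clec9a was at 659 and 585 CPM in all other cells and at 72.3 and 67.1 CPM in the macrophages. Whether reads there were shared was not tested. Of 23 adhesion genes 5 were higher and 11 lower. Itgad, the CD11d chain (1335 and 1292 CPM against 17.0 and 14.2; 6.52, SE 0.11), Itga9 (5.71), Cd44 (2.30) and Pecam1 (1.77) were higher. Itgal (−3.27) and Itga4 (−1.96), chains of lymphocyte and dendritic cell integrins, were lower, as was Jaml (−4.48).

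Genes of antigen presentation on MHC class II were mostly lower in the macrophages than in all other cells, dendritic and B cells included. Summed over the list, they were at 11761 and 15666 CPM in the macrophages. The same sum in CPM was 25251 and 21991 in B cells, 4296 and 2962 in T cells and 3729 and 7254 in NK cells. Of 12 genes 10 were called lower and 1 higher against all other cells, a median log2 fold of −2.52. H2-Aa was at 1616 and 2304 CPM against 10537 and 10465 CPM (−2.31, SE 0.15, adjusted p = 2.1e-05). H2-Ab1 (−2.37), H2-Eb1 (−2.67), the invariant chain Cd74 (4412 and 6373 CPM against 17041 and 16635; −1.53) and the class II transactivator Ciita (68.0 and 82.1 CPM against 757 and 691; −3.17, SE 0.10) were lower. H2-DMa was not called (−0.97). Ctss, a protease that trims the invariant chain, was the gene that was higher (2864 and 3037 CPM against 1115 and 1103; 1.53), and it was not so called against cDC2s. In the macrophages all 8 class II genes with at least 50 CPM were higher in replicate 2 than in replicate 1, by a median of 0.459 on the log2 scale, whereas in all other cells the same genes differed by −0.034. All 15 stress and early response genes at that level were also higher in replicate 2 (median 0.288, against 0.123 in other cells). Over 3715 macrophage genes at that level the median was −0.005. With 1 sum per sample these differences have no test.

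**Figure D4:**
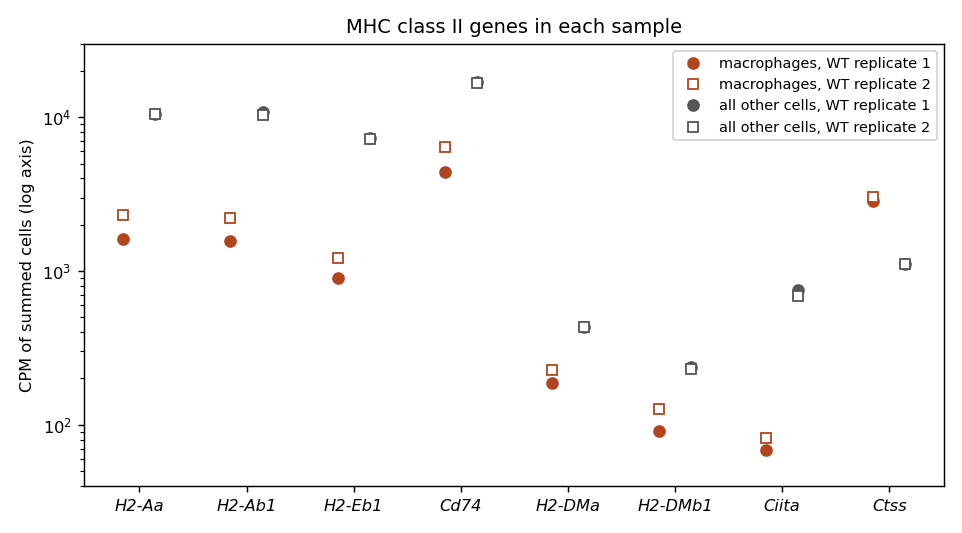
CPM (logarithmic axis) of 7 class II pathway genes and Ctss in the macrophages and in all other cells, each sample drawn as its own point. The macrophages lie below the other cells for all but Ctss, and replicate 2 lies above replicate 1 in the macrophages, for H2-Aa at 2304 against 1616 CPM.

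Interferon response genes were more often higher than lower against all other cells, 14 against 2 of 24 genes tested (median 1.08). Against cDC1s 15 were higher and 1 lower of 23 (median 2.23). Against cDC2s 9 were higher and 4 lower of 23, with a median of only 0.23. Ifi204 (3.98), Ifit3 (2.94) and Rsad2 (2.70) were among the 14. Ifi205 was lower (−3.82, or −4.75 without the macrophages of replicate 1) against all other cells and higher against cDC2s (1.32). Of 20 dissociation and stress genes 8 were lower, including Egr1 (−2.30) and Hspa1b (−1.48). Without the macrophages of replicate 1, 5 of the stress genes were lower and Hspa1b was no longer called (−1.51). Of 20 cell cycle genes 18 were lower, but the limit on Top2a and Mki67 removed dividing macrophages, so nothing is read from these genes, nor from Pclaf (−6.25), Knl1, Ccna2, Birc5 and Nusap1, which stood among the 10 lowest folds of the genes called lower in all 3 comparisons with at least 50 CPM. Among the rest of those 10, Gpr183, an oxysterol receptor that positions dendritic cells, was at 6.42 and 5.95 CPM against 161 and 168 CPM (−4.59), and Sept3 (−5.24), Plp2 (−4.64), Klri1 (−4.57) and Mycl (−4.61, or −6.20 without the macrophages of replicate 1) were lower too.

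Genes that mark other splenic macrophages and monocytes gave a mixed picture. Of 11 marginal zone macrophage genes 6 were higher and 3 lower. Siglec1, encoding CD169, was at 47.5 and 39.5 CPM against 1.25 and 0.601 CPM (5.68, SE 0.29), and was detected in 36.6% and 46.7% of the macrophages (16.4% and 19.6% when thinned, against 0% and 0.694% of T cells). The thinned T cells were 38 and 144, so a count of 0 allows a share with a UMI at that depth of up to 7.89% and 2.08%, which does not limit the share that expresses the gene. Marco was at 108 and 65.5 CPM against 4.01 and 0.451 CPM (5.43, SE 0.69), its fold ranging from 4.77 to 7.16 with 1 sample left out, and was detected in 23.1% and 19.3% (13.2% and 10.8% when thinned, against no T cell). Cd209b, the lectin SIGN-R1 of marginal zone macrophages, was seen in 1 macrophage of each sample. Of 18 monocyte genes 3 were higher and 8 lower. Ccr2 was at 16.0 and 5.64 CPM against 100 and 102 CPM (−2.92, or −4.09 without the macrophages of replicate 1), with a UMI in 14 of 350 and 3 of 150 macrophages, and S100a4 (−3.74) was lower. Treml4 (2.67) and Ear2 (2.72) were higher.

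The macrophages were not alike in every gene. C6 was detected in 86.6% and 84.7% of them (84.8% and 79.7% when thinned), whereas Marco was concentrated, with 91.1% and 92.3% of its UMIs in the 10% of macrophages that held most. The same share was 63.4% and 48.4% for Siglec1 and 21.4% and 20.5% for Vcam1. Cd163 was detected in 56.6% and 55.3% of the macrophages (42.5% and 36.5% when thinned), with a median of 1 UMI and up to 94 and 84 UMIs in a cell. Timd4 was detected in 69.7% and 74.0% (48.4% and 52.0% when thinned), and neither gene was seen in a thinned T cell. H2-Aa lay between these, with 49.2% and 36.0% of its UMIs in the top 10% of cells. Lyz2, encoding lysozyme, was extreme, since 5 cells held 83.5% and 90.3% of its UMIs and the median macrophage held none. Its fold of 0.85 against all other cells was not called, but it was called when the 87 and 91 other cells near the limits were left out (1.59). Over 3556 genes the variance of the macrophages was a median of 1.83 and 1.76 times the counting noise. The hemoglobin genes Hba-a1, Hba-a2, Hbb-bs and Hbb-bt and Lyz2 exceeded it most, and Tspan31, Trim26, Txndc9, Rabggtb and Dctn1 least.

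**Figure D5:**
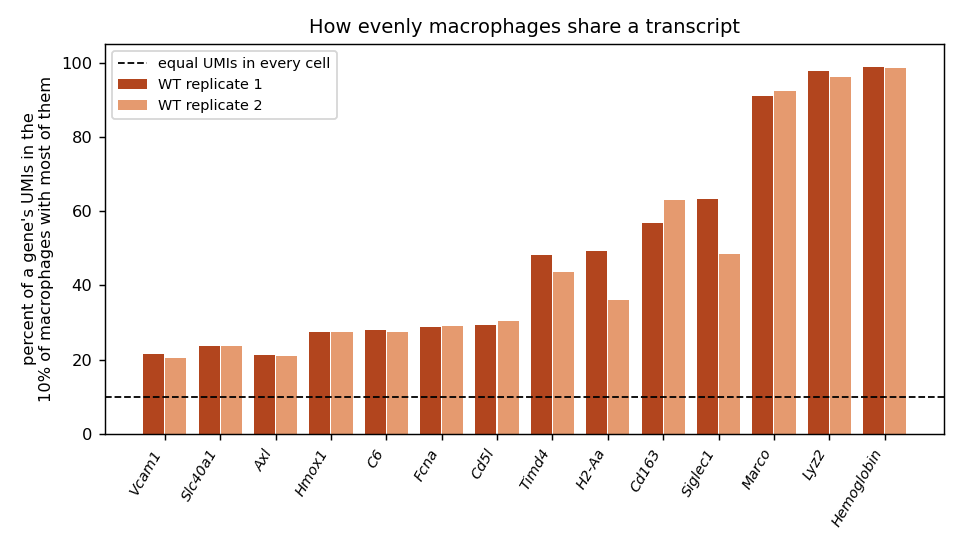
Percent of a gene's UMIs held by the 10% of macrophages with most UMIs of it, for 13 genes and the summed hemoglobin genes, in each of the 2 samples, with the dashed line at the 10% that an even spread would give. Vcam1 stands at 21.4% and 20.5%, and Marco at 91.1% and 92.3%.

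Transcripts of erythroid cells were found in the macrophage sums. Of 14 erythroid list genes 10 were called higher and 1 lower, and their summed level was 3835 and 2960 CPM against 98.6 and 176 CPM in other cells. Hba-a1 was at 1252 and 1012 CPM against 22.3 and 49.6 CPM (5.10, or 4.34 and 5.84 in a single sample), and Alas2, the erythroid enzyme that starts heme synthesis, had a log2 fold of 5.43 (4.52 and 6.18 in a single sample). Gata1 had no UMI in the macrophages. The signal came from few cells, since 5 cells held 76.6% and 97.2% of the hemoglobin UMIs and the median macrophage held none. The 30 and 10 macrophages with at least 10 hemoglobin UMIs also held 246 of 252 and 74 of 76 Alas2 UMIs. Without these macrophages Alas2 (log2 fold 0.28) and the hemoglobin genes were no longer called higher. The folds of Hba-a1 (−0.62), Hba-a2 (−0.72), Hbb-bs (−0.63) and Hbb-bt (−1.14) turned below 0. The hemoglobin genes set this cut, so their fall was built in. Only macrophages were cut, and the 17 and 16 other cells with at least 10 hemoglobin UMIs stayed in the comparison. The hemoglobin genes are near-identical copies, so the division of reads among them is uncertain. Hmox1 was at 4659 and 4293 CPM in these macrophages and at 5049 and 5418 CPM in the rest, and Slc40a1 was at 6397 and 4686 CPM against 6412 and 5486 CPM.

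Most markers of B, T and NK cells were low in the macrophages. So were most of those of conventional dendritic cells, whose sums rested largely on Cadm1, Sirpa and Clec12a. Summed CPM of 11 B cell genes was 97.4 and 123 (58088 and 30728 in B cells), of 11 T cell genes 118 and 162 (8419 and 8809 in T cells) and of 10 NK cell genes 56.3 and 53.9 (10225 and 10807 in NK cells). The T cell sum lay between those of cDC1s (36.2 and 35.5 CPM) and cDC2s (279 and 293 CPM). Cd4, known from T cells, had a UMI in 52.6% and 56.7% of the macrophages, 776 and 460 UMIs in all. Marker lists here hold genes that chose the comparison cells, among them Cd79a for B cells, Xcr1 for cDC1s and Cd209a for cDC2s. The levels in those cells were therefore partly set by the choice. Of these lists 10, 10 and 9 genes were called lower. Without the macrophages of replicate 1 the B cell list had 6 lower calls and the T cell list lost its calls, and without those of replicate 2 the T cell list had 3. The neutrophil list was at 4.28 and 2.82 CPM, with 7 of its 13 genes at no UMI, and the mature dendritic cell list at 539 and 511 CPM against 2056 and 2102 CPM in other cells. The plasmacytoid list was at 293 and 290 CPM, where Bst2 was higher (1.75) and 6 of 9 genes lower. The endothelial and stromal list reached 265 and 259 CPM, of which Stab2 gave 248 and 245, and 3 further genes were called higher (2 of the 4 calls were left without the macrophages of replicate 1). cDC1 markers amounted to 2041 and 1949 CPM (9686 and 9737 in cDC1s, 4897 and 4837 in all other cells), with 11 of 13 lower and Cadm1 higher at 1104 and 1156 CPM against 471 and 482 CPM (1.36). Cadm1 was in 98.6% and 98.7% of the macrophages, and did not pass the threshold against cDC1s (0.18). Xcr1 was lower (−4.25, or −6.16 without the macrophages of replicate 1), and the 3.81% and 2.70% of thinned macrophages with a UMI of it were no more than the 7.89% and 2.78% of T cells. Clec9a was lower (−3.03) and was found in 17.3% and 18.2% of thinned macrophages, beside 15.8% and 2.78% of T cells. The cDC2s, at 9.11% and 8.45%, were chosen with at most 1 UMI of Xcr1 and Clec9a together, which limits their share. The 16 and 5 macrophages that also met the cDC1 limits were kept, whereas such T cells were left out. The Clec9a gene model overlaps that of Clec1b, which was at 110 and 128 CPM in the macrophages. Whether reads were shared was not tested. cDC2 markers amounted to 1468 and 1549 CPM (2528 and 2596 in cDC2s), beside 1236 and 1165 CPM in all other cells. Most of the macrophage level came from Sirpa (976 and 1022 CPM) and Clec12a (322 and 310 CPM, log2 fold 1.95), which were higher. Of the 13 genes 9 were lower. In all, 19 and 14 macrophages also met the limits set for another cell type, and leaving them out gave 2302 genes higher and 2490 lower against all other cells. Of the genes named here Cxcl10 alone lost its call without them (1.71).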

How the data were processed

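The authors made the deposited tables of whole-number counts from the reads with the BD Rhapsody WTA Analysis Pipeline 1.12.1 against GRCm38 with the GENCODE M19 annotation. Cell barcodes were called on mRNA, intronic reads were counted, and the UMIs were the pipeline's error-corrected ones. Each table gave UMI counts per cell and gene for 1 sample, 27032 genes in 3308 and 3085 cells. The study used R 4.2.3 and Seurat 4.3.0.1 downstream. Since intronic reads were included and genes that overlap can share reads, 18 of 245 genes examined overlapped another gene with a measured level and are less certain.

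All cells of the deposited count tables were used without a further filter, and doublets were scored with Scrublet in scanpy 1.11.5, which marked 34 and 26 cells, 11 and 1 of them macrophages. The macrophages, the lists and the comparison cells were chosen with earlier results of these data known. Comparison cells lay outside the macrophages and held fewer than 5 Vcam1 UMIs. cDC1s had at least 5 UMIs of Xcr1 and Clec9a together, and cDC2s at least 5 of Clec4a4, Cd209a, Clec10a and Mgl2 with few of Xcr1, Clec9a, Ccr7 and Siglech. B cells had at least 5 UMIs of Cd79a, Cd79b and Ms4a1, T cells at least 3 of Cd3d, Cd3e and Cd3g, and NK cells at least 3 of Ncr1, Klre1 and Klrb1c. Mature dendritic cells had at least 5 of Ccr7. A cell that met more than 1 of these was left out of them all.

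UMIs were summed per sample and group and tested with edgeR 4.0.16 (TMM scaling, its default filter on low counts, quasi-likelihood fit) in R 4.3.3, leaving out the genes that chose the groups. The SE is the size of the log2 fold over the root of its F statistic. The sums of a sample come from the same library, yet their deviations from the group means were hardly related (correlations of 0.0818, 0.0635 and 0.0479 for the 3 comparisons), and a fit blocked on sample was among the alternatives. To compare shares of cells across depths, each cell was thinned to 5000 UMIs, which dropped 9 and 2 macrophages and 12 and 32 T cells. The fit was tested on simulated data first. The text names, per list, up to 8 called genes that were higher and 4 that were lower with at least 20 CPM, the 15 largest and 10 lowest folds called alike in all comparisons with at least 50 CPM, and the 5 most and 5 least variable genes. Further list members, among them ferritin, class II and erythroid genes, were named after their values were seen, and some genes that the rule names are not reported here. Other tools were Python 3.11.15, numpy 2.4.6, pandas 2.3.3, scipy 1.17.1, matplotlib 3.10.9 and, for the alternative test, DESeq2 1.42.0.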

Additional observations from a re-analysis of the deposited data

How the results depend on the processing

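The numbers of genes called stayed within 1.5 times the values given in each of 86 recomputed counts over the 3 comparisons and both directions. With both replicates kept they lay between 1961 and 2364 higher and between 2130 and 2664 lower against all other cells, 2274 to 2520 and 1850 to 2343 against cDC1s, and 1969 to 2362 and 1638 to 2019 against cDC2s. Leaving out the macrophages of 1 replicate gave 1942 to 2275 higher and 2191 to 2271 lower against all other cells, 2153 to 2387 and 1968 to 2010 against cDC1s, and 2025 to 2238 and 1782 to 1850 against cDC2s. The lone macrophage sum was there assumed to vary like the comparison sums. With the sample as a replicate block, 2308 genes were higher and 2485 lower against all other cells, 2432 and 2049 against cDC1s, and 2143 and 1834 against cDC2s. Of the 238 genes examined singly the block ended the call of Car2 alone (0.93). Among the lists it moved the lower calls of the dendritic transcription factors from 12 to 11, and it moved the lower calls of the endothelial and stromal list from 1 to 2. With the UMI limits doubled, the macrophages were 9.19% of the cells of replicate 1. Without the 30 and 10 macrophages with at least 10 hemoglobin UMIs the folds of Hba-a1 (−0.62), Hba-a2 (−0.72), Hbb-bs (−0.63), Hbb-bt (−1.14) and Car2 (−0.33) turned below 0. This cut was made on the hemoglobin genes themselves and on the macrophages only, so the fall of the hemoglobin folds was built in.

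Among 4045 log2 folds of 238 genes examined under the alternatives, 3778 counted as unchanged, 34 lost their call, 12 gained one and 5 changed direction. The 5 that changed direction were the hemoglobin folds and Car2 under the cut on hemoglobin UMIs. A tested fold counted as unchanged when its call, or lack of a call, stayed the same. An untested fold from a single sample did so when it lay within the spread implied by the SE of the value given. The other 216 were folds from a single sample, with no test, that differed from the value given by more than the spread between samples that its SE implies. Of 765 counts of list genes 739 stayed within 1.5 times, and one that did not was the heme and iron list, with 4 genes lower under the filter on cells of the methods. Scaling by library size alone moved the median log2 fold of all genes against all other cells from −0.05 to −0.15. Genes close to a 2-fold difference changed their call with the setting, among them Irf8 and H2-DMa, which were called lower under several. The cause of these changes was not tested. With 2 sums a side the spread rests on few values, so genes at a few CPM are less certain than abundant ones.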
